A study of Mus musculus with 24 samples.

Results

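The genes described here are 100 of 18194 mouse genes, 0.55% of those measured, whose signal was highest on day 3 of the induction of epiblast-like cells (EpiLCs) from embryonic stem cells (ESCs). Each gene was read by the probe set with the highest mean over all 24 arrays, among probe sets assigned to 1 gene symbol, and intensities below 4.2 were set to 4.2. A gene was kept when the mean log2 intensity of the 2 day 3 arrays was at least 1, or 2-fold, above the means of ESCs, day 1 EpiLCs and day 2 EpiLCs, and was itself at least 6. The distance of day 3 from the highest of those 3 groups is called the margin. The genes were thus chosen by the unamplified values of ESCs and of day 1, day 2 and day 3 EpiLCs, and these values are given as a description with no test. Of the 100 genes, 91 carry an established name and 9 a provisional one.

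The study followed gene expression on Affymetrix arrays while mouse pluripotent cells were led towards germ cells in culture, beside the corresponding cells of the embryo. All cells were of the C57BL/6 strain. On 12 arrays unamplified total RNA was measured from ESCs grown without feeder cells in 2i and LIF, from EpiLCs at days 1, 2 and 3 of induction from those ESCs, from primordial germ cell-like cells (PGCLCs) induced from day 2 EpiLCs, and from epiblast stem cells (EpiSCs), cultured lines derived from the epiblast at embryonic day 5.75. On a further 12 arrays the RNA was amplified by 22 cycles of PCR from 5 ng, the amount in about 500 cells, for ESCs, day 2 EpiLCs, EpiSCs, PGCLCs, epiblast taken from embryos and primordial germ cells (PGCs) of embryonic day 9.5. Each of the 12 groups had 2 arrays labelled as biological replicates. The labels name no cell line, sex or number of animals and do not say whether replicates were separate cultures, so p-values measure only the spread between these samples. Whether amplified and unamplified arrays share RNA extracts is not stated. Day 3 EpiLCs were measured only without amplification, so the peak itself rests on 2 arrays.

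EpiLCs pass through a state like that of the epiblast just before gastrulation, and at day 2 they respond to BMP4 by forming germ cells. The genes with the largest margins include actins and actin-binding proteins. Genes of that kind are controlled in many cell types by serum response factor (SRF), which binds the CArG box and is activated through its MRTF partners when free actin monomers are taken up into filaments. Another set of genes that respond to cell shape and tension, among them Ccn1 and Ccn2, is controlled by YAP and TAZ together with TEAD factors.

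Array medians ranged from 41.1 to 49.2 without amplification and from 36.2 to 40.03 after it. Replicates correlated across genes with r of 0.975 to 0.991 and of 0.911 to 0.972 in the same order, and the 2 amplified EpiSC arrays were the least alike pair. The 5′ to 3′ signal ratio of Actb, a measure of transcript completeness, was 0.792 to 0.874 without amplification and 0.0503 to 0.206 after it. In day 3 EpiLCs 4 EpiLC and epiblast markers summed to intensities of 9584 to 9886, against 15733 to 16285 at day 2 and 2045 to 2099 in ESCs, and 4 ESC markers summed to 287 to 340 against 9019 to 9138 in ESCs. The 4 EpiSC markers summed to 419.0 to 444.4 at day 3 against 938.6 to 984.1 at day 2. The 4 PGCLC and PGC markers summed to 750.9 to 807.2 against 438.6 to 488.1. Of other cell types, 7 fibroblast markers summed to 448.5 to 452.3 at day 3, 360.6 to 366.1 at day 2 and 107.7 to 111.6 in ESCs. For 6 visceral endoderm markers the sums were 266.2 to 284.4, 174.3 to 230.0 and 98.3 to 106.2. On both day 3 arrays 3 of the fibroblast and 4 of the visceral endoderm markers were below the filter level. The part of such cells in the results was not tested. In bulk samples fewer cells of a type and less RNA per cell cannot be told apart.

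The margins were mostly small. Their median was 1.199 on the log2 scale and their highest was 3.72, and 78 of the 100 genes had a margin under 1.5, 12 lay between 1.5 and 2, and 10 were at or above 2. Just inside the limit were Mapkapk2 (1.0008), Sgce (1.0023), Dusp5 (1.0048) and Rpl12 (1.0098), and just outside it were Rab11fip1 (0.9937), Scrn1 (0.9867), Large2 (0.9855) and Insl6 (0.98). At the limit on level the day 3 means were 6.01 for Lmod1, 6.04 for Scg5, 6.14 for Ccdc171 and 6.21 for Morc4 inside, and 5.91 for Esx1, 5.76 for Pmp22, 5.66 for Tcstv1 and 5.57 for Hpgd outside. In every one of the 100 genes both day 3 arrays lay above all 6 arrays of ESCs, day 1 and day 2. The same was true of 15.5% of all genes, and since the rule used these arrays nothing is read from the count. The margin computed from replicate 1 alone was at least 1 in 94 genes and from replicate 2 alone in 70, with lowest values of 0.71 and 0.65.

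**Figure D1:**
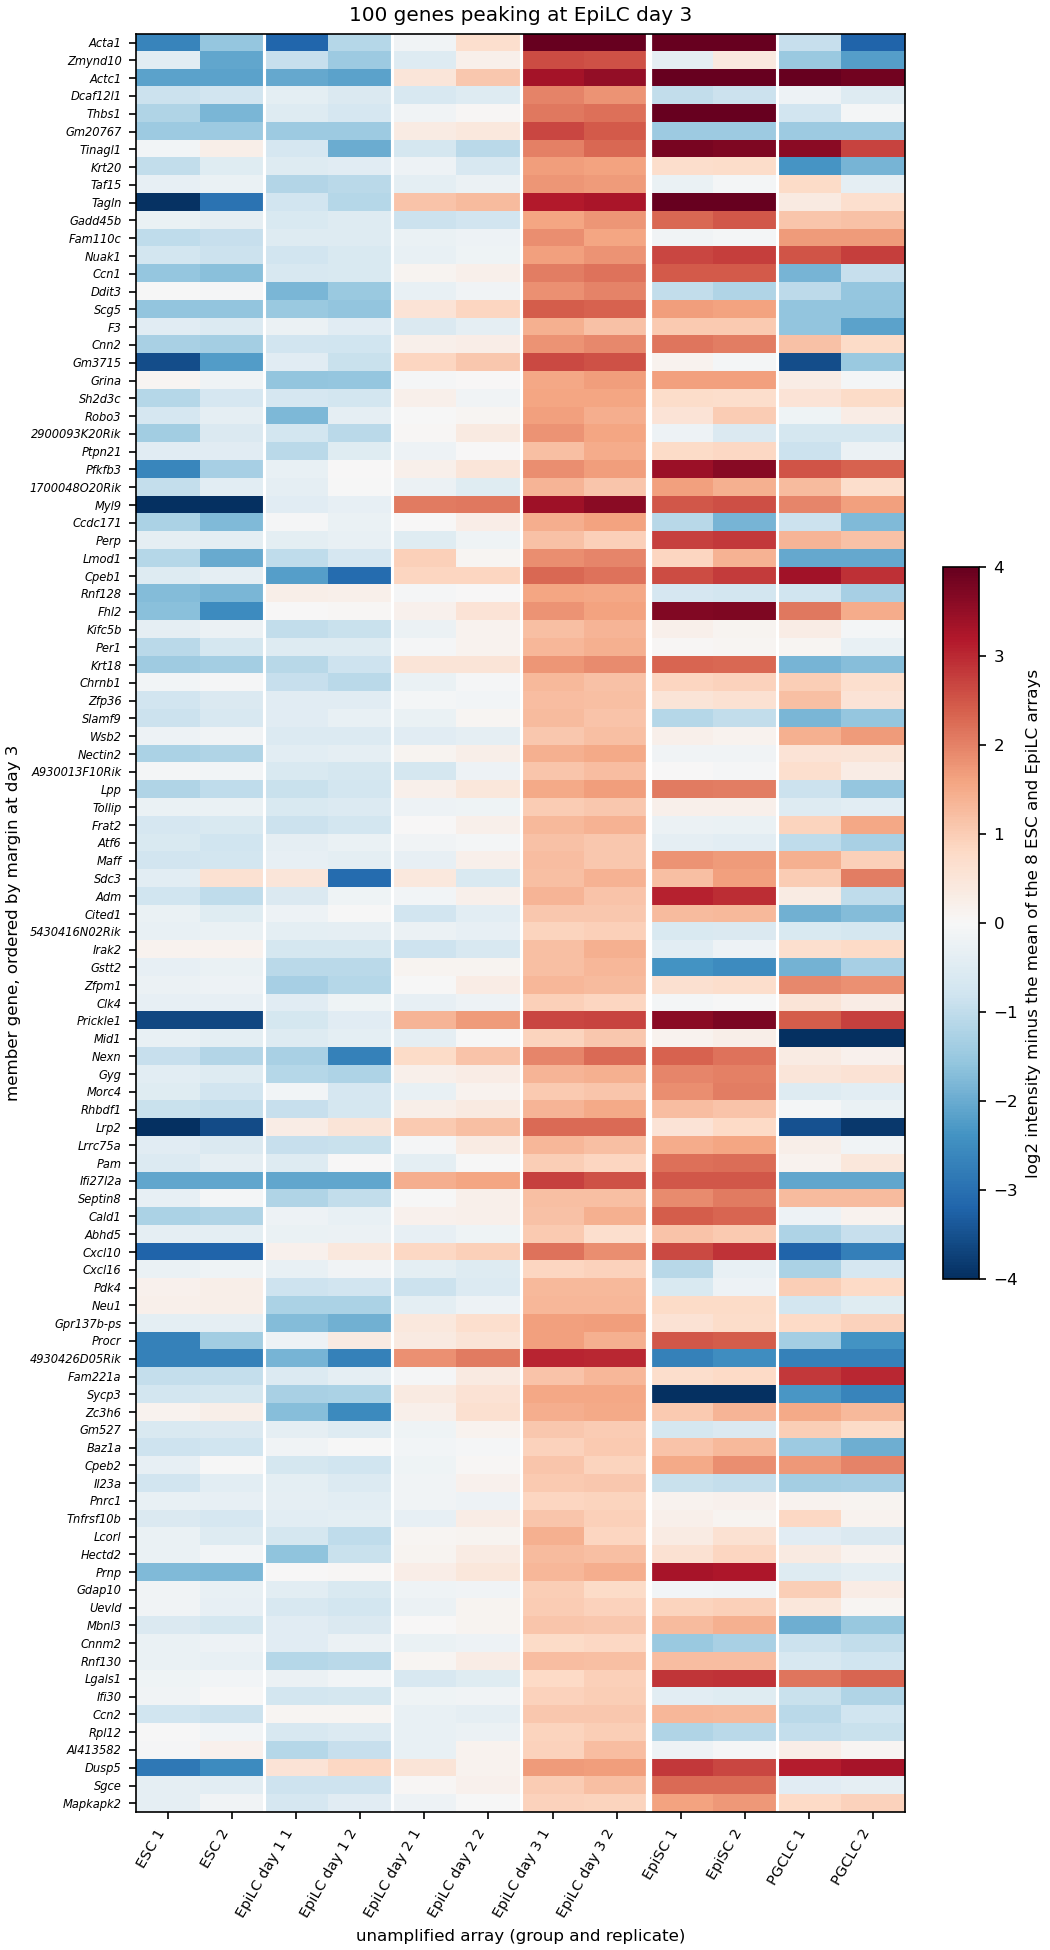
Rows are the 100 genes in order of their margin and columns the 12 unamplified arrays; colour gives log2 intensity (floor 4.2) minus the gene's mean over the 8 ESC and EpiLC arrays, cut at 4 either side. Both day 3 columns are red in every row because the rule chose them, while the EpiSC and PGCLC columns, which the rule did not use, differ from gene to gene.

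The approach to day 3 was not the same in all of them. Day 2 was the next highest of the 4 groups in 74 genes, ESCs in 18 and day 1 in 8. Day 2 stood at least 1 above ESCs in 34 genes, among them Prnp (2.16), Krt18 (1.90), Ccn1 (1.77), Rnf128 (1.77) and Cnn2 (1.57), all above the filter level of 28.1 in ESCs. In 30 of the 100 genes ESCs were below that level, the 40th percentile of the unamplified values, so that the size of their difference is not measured; Myl9, Lrp2, Tagln and Cxcl10 are such genes. No gene stood at least 1 below ESCs at day 2. In the other 66 genes day 2 lay within 1 of ESCs. In 45 genes day 1 lay below ESCs, by at least 1 in 11 of them. Ddit3, which encodes the stress-induced factor CHOP, was such a gene, with intensities of 344 and 336 in ESCs, 96.8 and 122 at day 1, 278 and 311 at day 2, and 1230 and 1366 at day 3.

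EpiSCs and PGCLCs are separate groups and not later days of the same course. In the array names their replicate 1 carries another code than replicate 1 of ESCs and EpiLCs, while replicate 2 shares its code. What the code stands for is not stated. EpiSCs were at or above day 3 in 42 genes and PGCLCs in 16. EpiSCs were at least 1 above day 3 in 15 and at least 1 below in 32, and PGCLCs at least 1 above in 4 and at least 1 below in 58. Day 3 EpiLCs had the highest mean of all 6 unamplified groups in 55 genes.

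Contractile and actin-binding genes formed the largest named group. Of 26 genes listed for the actin cytoskeleton and SRF, 7 (26.92%) met the rule, against 0.55% of all genes; the list was drawn up with earlier results of these data known, so the share is a description. The 7 are Acta1 and Actc1, the skeletal and cardiac muscle actins, Tagln (transgelin) and Cnn2 (calponin 2), which bind actin filaments, Myl9, a regulatory light chain of non-muscle and smooth muscle myosin, Cald1 (caldesmon), which restrains myosin on actin, and Lmod1 (leiomodin 1), which starts new filaments.

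Acta1 had the largest margin of all 100 genes, 3.72, or 13.2-fold. Its intensities were 6.12 and 13.01 in ESCs, 4.27 and 17.6 at day 1, 35.2 and 60.6 at day 2, and 605 and 612 at day 3, so that both day 3 arrays lay about an order of magnitude above the highest earlier array. In EpiSCs it reached 1470 and 1518, while in PGCLCs it was 20.4 and 1.0, both below the filter level. Actc1 rose along the same days, with 2.80 and 3.54 in ESCs, 4.46 and 1.0 at day 1, 25.9 and 38.7 at day 2, and 185 and 209 at day 3. Unlike Acta1 it was also present in PGCLCs, at 425 and 268, above day 3, and it was highest in EpiSCs, at 921 and 906. The 2 actins are close in sequence, and how far their probe sets keep them apart was not tested; their different order in PGCLCs shows that they did not report the same signal.

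Tagln climbed at every step, from 9.45 and 19.01 in ESCs to 86.4 and 66.9 at day 1, 327 and 352 at day 2, and 1331 and 1425 at day 3. It was higher again in EpiSCs, at 3655 and 3678, and was 190 and 235 in PGCLCs, between day 1 and day 2. Myl9 went furthest from the ESC level, with 1.26 and 3.30 in ESCs, 115 and 124 at day 1, 654 and 678 at day 2, and 1648 and 1881 at day 3. Day 3 was its highest unamplified group, since EpiSCs had 861 and 923 and PGCLCs 605 and 482. Cnn2 was well above the filter level throughout, at 279 and 269 in ESCs, 790 and 835 at day 2, 2394 and 2617 at day 3, 3034 and 2844 in EpiSCs and 1564 and 1160 in PGCLCs. Cald1 had 1000 and 1035 at day 2, 2028 and 2399 at day 3, and 4803 and 4508 in EpiSCs. Lmod1 was the dimmest of the 7, at 62.3 and 66.9 on day 3 and 33.4 and 18.4 on day 2, and its margin was 0.90 in replicate 1 and 1.86 in replicate 2.

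**Figure D2:**
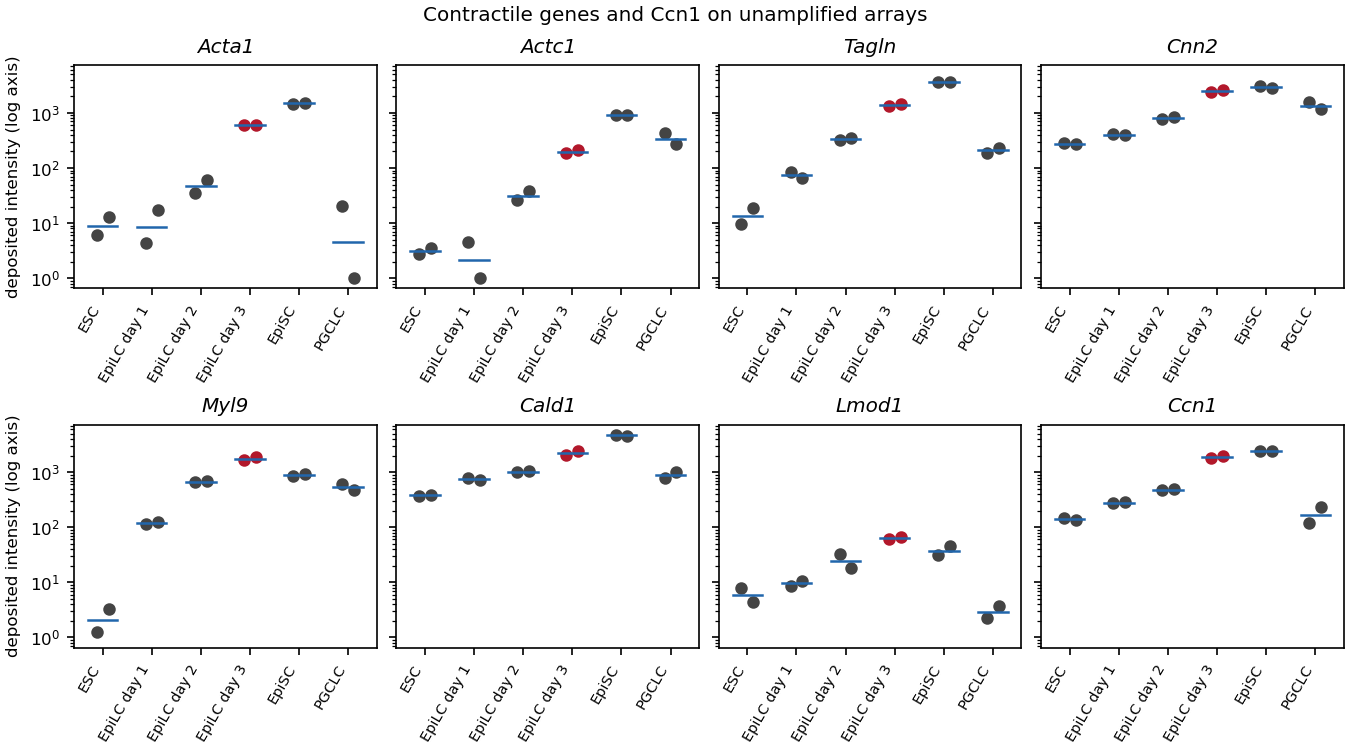
Deposited intensity (log axis) of the 7 contractile genes and Ccn1 on the 12 unamplified arrays; points are single arrays, with day 3 in red, and lines are geometric means of the 2 arrays. Replicates lie close together except near the detection limit, and EpiSCs and PGCLCs differ from gene to gene: Acta1 is at 20.4 and 1.0 in PGCLCs while Actc1 is at 425 and 268.

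The remaining 19 genes of the list moved less on the whole, a difference that the rule itself favours. Their median step from day 2 to day 3 was 0.67, against -0.01 for all genes tested, and it was above 0 in 17 of the 19. Csrp1, a LIM protein of actin bundles, had the largest step of the 19, 1.29, with 381 and 406 at day 2 and 936 and 990 at day 3. It missed the rule because ESCs were at 517 and 551. This contrast is one the rule used, and 1.48% of all genes tested were higher and 2.78% lower in it. Acta2, Tpm1, Tpm2, Tpm4, Flna and Vcl, which encode smooth muscle actin, tropomyosins, filamin and vinculin, differed by 0.82, 0.96, 0.67, 0.76, 0.67 and 0.63. Srf itself went from 619 and 619 at day 2 to 809 and 907 at day 3, a difference of 0.47.

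Promoter sequence was set beside these values because the CArG box is the binding site of SRF. RefSeq promoter windows of GRCm38.p6, from 250 bases before to 50 bases after a transcript start, were at hand for 75 of the 100 genes. A CArG box lay in at least 1 window of 9 of the 75 (12%), against 1.81% of the 27025 genes with a window, both strands being read. The 9 are Acta1, Actc1, Myl9, Cnn2, Fhl2, Zfp36, Dusp5, Cited1 and Rnf128. Of the other contractile genes Cald1 and Lmod1 had a window without the box, and Tagln had no window. A match is a description of letters and not of a bound site. The 250 bases before the start are shown for the 4 contractile genes and for Fhl2, a LIM-domain partner of actin-linked factors, with the CArG box in capitals; they are chr8:123894776-123895025 on the minus strand for Acta1, chr2:114052876-114053125 on the minus strand for Actc1, chr2:156775214-156775463 on the plus strand for Myl9, chr10:79988350-79988599 on the plus strand for Cnn2 and chr1:43163962-43164211 on the minus strand for Fhl2.
Acta1: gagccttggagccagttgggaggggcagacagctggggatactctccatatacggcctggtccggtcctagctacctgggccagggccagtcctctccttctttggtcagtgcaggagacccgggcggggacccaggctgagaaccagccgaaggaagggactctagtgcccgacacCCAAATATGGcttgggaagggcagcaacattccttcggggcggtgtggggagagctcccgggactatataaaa
Actc1: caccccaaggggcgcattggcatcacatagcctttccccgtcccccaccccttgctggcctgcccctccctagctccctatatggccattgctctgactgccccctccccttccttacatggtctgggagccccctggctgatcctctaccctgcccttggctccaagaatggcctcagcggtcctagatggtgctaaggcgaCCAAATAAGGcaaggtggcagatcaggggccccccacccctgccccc
Myl9: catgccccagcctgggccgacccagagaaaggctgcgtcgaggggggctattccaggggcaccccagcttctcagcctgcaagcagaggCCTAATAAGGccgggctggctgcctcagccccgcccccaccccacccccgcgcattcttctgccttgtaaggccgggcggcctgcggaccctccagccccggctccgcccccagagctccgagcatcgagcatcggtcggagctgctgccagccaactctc
Cnn2: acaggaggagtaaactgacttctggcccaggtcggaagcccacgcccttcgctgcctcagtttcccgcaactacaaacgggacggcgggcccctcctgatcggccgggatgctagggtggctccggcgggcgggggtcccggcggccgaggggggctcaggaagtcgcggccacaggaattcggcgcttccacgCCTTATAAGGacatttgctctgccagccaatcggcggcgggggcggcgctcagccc
Fhl2: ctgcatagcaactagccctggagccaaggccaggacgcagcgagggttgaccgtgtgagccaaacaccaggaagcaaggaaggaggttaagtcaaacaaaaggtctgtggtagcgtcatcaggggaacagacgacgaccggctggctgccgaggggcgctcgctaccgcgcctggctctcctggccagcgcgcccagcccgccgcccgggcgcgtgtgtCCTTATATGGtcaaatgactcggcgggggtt

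The box began 73 bases before the start in Acta1, 47 in Actc1, 161 in Myl9 and 56 in Cnn2, and at 96 and 31 in the 2 windows of Fhl2. Dusp5 held 2 boxes that abut, beginning 82 and 72 bases before the start. The start sites are those of the annotation and were not measured here. Fhl2, named because of its promoter and not by the rule for named genes, had 27.1 and 34.6 at day 2, 83.3 and 72.3 at day 3, and 309 and 321 in EpiSCs. The TEAD motif, CATTCCA or CATTCCT, was in 13 of the 75 genes (17.33%, against 10.65% of all genes), TGACTCA, the AP-1 motif, in 7 (9.33%, 5.95%), CACGTG, the E-box read by MYC and clock factors, in 10 (13.33%, 8.09%) and TATAAA in 15 (20.0%, 15.67%). The T-box motif TCACACC was in 6 (8.0%, 4.6%), CAGCTG in 13 (17.33%, 18.29%), and the TCF motif CTTTGAT or CTTTGTT in 1 (1.33%, 10.6%). These shares were not tested.

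**Figure D3:**
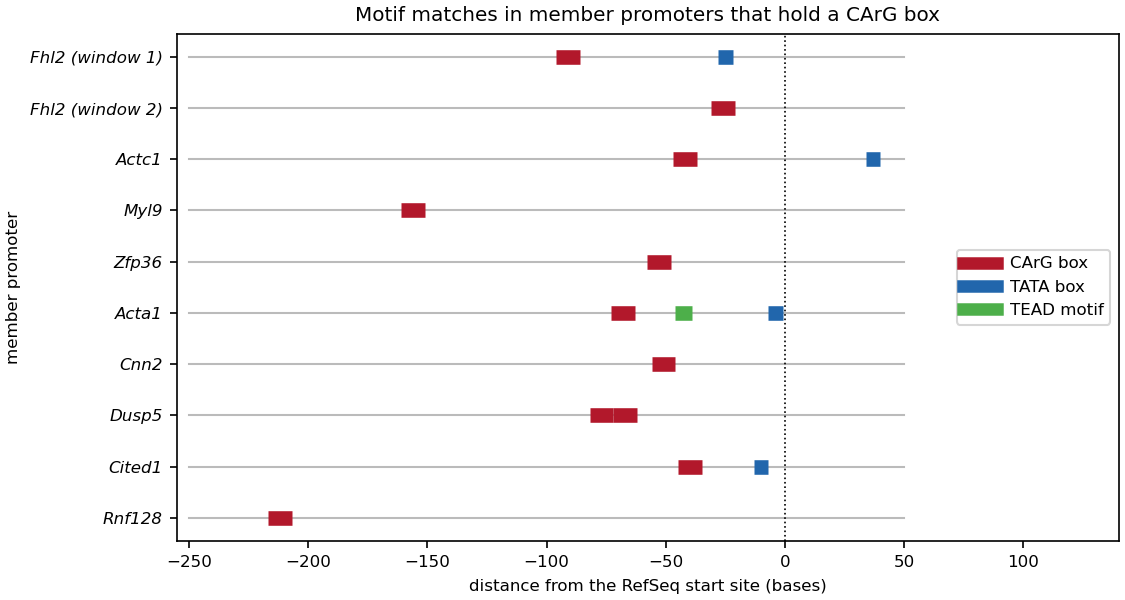
Position of motif matches, in bases from the RefSeq start site (dotted line at 0), in the 10 promoter windows of the 9 genes that hold a CArG box (red); TATA boxes are blue and TEAD motifs green. The boxes begin between 217 and 31 bases before the start, and Acta1 alone of the 9 also has a TEAD motif in its window.

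Genes that respond through YAP and TAZ and secreted proteins made up a further group. Of 19 YAP and TAZ target genes measured 3 met the rule (15.79%, against 0.55% of all genes), all of which encode proteins outside or on the surface of the cell. Ccn1, a matrix-bound integrin ligand, went from 149 and 135 in ESCs through 278 and 283 at day 1 and 467 and 501 at day 2 to 1793 and 1945 at day 3, and was at 2404 and 2399 in EpiSCs and 120 and 231 in PGCLCs. Its relative Ccn2 passed with a margin of 1.01, with 974 and 940 at day 2 and 2554 and 2552 at day 3; its day 1 arrays, at 1274 and 1258, lay above day 2. F3, tissue factor, was level from ESCs to day 2 (76.7 to 99.2 on 6 arrays) and at 309 and 263 on day 3.

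Thbs1, thrombospondin 1, which binds matrix and activates latent TGF-beta, was at 29.2 and 33.7 on day 2, 139 and 151 on day 3, and 625 and 725 in EpiSCs. Tinagl1, a basement membrane protein, was below the filter level on all 6 earlier arrays (3.16 to 19.8), at 66.9 and 82.8 on day 3, and higher in EpiSCs (230 and 224) and PGCLCs (205 and 109). The chemokine Cxcl10 rose in steps, from 2.77 and 1.0 in ESCs to 43.5 and 51.4 at day 1, 68.9 and 73.7 at day 2, and 172 and 138 at day 3. Adm (adrenomedullin), a vasoactive peptide induced by low oxygen, and Procr, the endothelial protein C receptor, had margins of 1.21 and 1.09 and lay higher in EpiSCs, at 471 and 429 and at 187 and 181.

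Epithelial genes differed widely in level. Krt18, a simple epithelial keratin, was the brightest of all 100 genes at day 3, with 4340 and 4739, against 1820 and 1808 at day 2 and 474 and 498 in ESCs. In PGCLCs it was back at 349 and 388, below its ESC level, and in EpiSCs it was at 6397 and 6246. Krt20 stayed below the filter level up to day 2 (14.4 to 24.9) and had 91.3 and 87.4 at day 3. Perp, a desmosome component and p53 target, was at 326 and 281 on day 3 and 105 and 128 on day 2, with 977 and 1033 in EpiSCs. The other bright genes were Rnf128, a ubiquitin ligase (2974 and 2933 at day 3), Pnrc1, a nuclear receptor coregulator (2656 and 2710), and Lgals1, galectin 1 (2485 and 2738), which was far higher in EpiSCs (10342 and 10534) and PGCLCs (6275 and 7116) than at day 3.

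Early response and stress genes were modest before day 3. Gadd45b, a stress-induced partner of MAP kinase kinases, was at 123 to 187 on the 6 arrays of ESCs, day 1 and day 2, at 666 and 751 on day 3, and at 1104 and 1258 in EpiSCs. Zfp36, which marks AU-rich mRNAs for decay, had 95.7 and 93.2 at day 2 and 236 and 233 at day 3. Maff, a small Maf factor, had 47.1 and 67.6 and then 138 and 125. Zfp36, Maff and Ccn1 were 3 of 22 immediate early genes measured (13.64%, against 0.55% of all genes). Irak2, a kinase of Toll-like receptor signalling, fell from 269 and 273 in ESCs to 137 and 159 at day 2 and stood at 566 and 656 on day 3. Tnfrsf10b, the death receptor for TRAIL, had an uneven margin, 1.44 in replicate 1 and 0.65 in replicate 2.

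Some of the largest margins belonged to genes outside these groups. Zmynd10, a factor for assembly of ciliary dynein arms, was below the filter level on the 6 earlier arrays (4.62 to 22.4), at 118 and 114 on day 3, and again below it in EpiSCs (15.1 and 25.2) and PGCLCs (6.83 and 1.0), so that of the 12 unamplified arrays only those of day 3 were above that level. On amplified arrays, which hold no day 3 sample, the EpiSC arrays had 35.5 and 85.3 and the other 10 lay between 8.37 and 15.2. Dcaf12l1, a WD-repeat gene of the X chromosome, was at 94.3 to 131 before day 3, at 673 and 597 on day 3, and at 87.0 to 148 in EpiSCs and PGCLCs. The Taf15 probe set had 98.6 to 185 before day 3, 744 and 716 on it, and 171 to 374 in EpiSCs and PGCLCs. Another Taf15 probe set had log2 means of 6.21 in ESCs, 6.04 at day 1, 6.68 at day 2 and 6.89 at day 3. Its margin was only 0.22. Nuak1, a kinase of the AMPK family, had 96.5 and 105 at day 2, 373 and 409 at day 3, and more in EpiSCs (757 and 804) and PGCLCs (684 and 804). Pfkfb3, which makes the activator of glycolytic phosphofructokinase, had 58.3 and 71.1 at day 2 and 184 and 161 at day 3, and Pdk4, which restrains entry of pyruvate into the mitochondrion, 56.3 and 70.2 and then 254 and 252.

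Sycp3, a component of the meiotic chromosome axis, and Lrp2 (megalin), an endocytic receptor of visceral endoderm and other epithelia, also peaked here. Sycp3 had 388 and 399 in ESCs, 259 and 267 at day 1, 826 and 959 at day 2 and 1874 and 1864 at day 3, but 21.4 and 20.4 in EpiSCs and 130 and 103 in PGCLCs. Lrp2 had 9.22 and 12.8 in ESCs, 313 and 352 at day 2, 731 and 727 at day 3, 224 and 265 in EpiSCs, and 13.4 and 10.4 in PGCLCs. Another Lrp2 probe set had log2 means of 7.33 at day 1, 7.32 at day 2, 7.78 at day 3 and 7.58 in EpiSCs. Its margin was 0.45. Of 18 visceral endoderm genes measured Lrp2 and Cited1 met the rule (11.11%, against 0.55% of all genes). In all, 25 of the 100 genes were in 1 or more of 38 lists and 75 in none.

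EpiSCs and PGCLCs were not used by the rule, so the members can be tested between them. The threshold for a call was an adjusted p under 0.05 and a log2 difference of at least 1. On unamplified arrays 43 of the 100 genes were higher in EpiSCs and 9 were higher in PGCLCs by limma with Benjamini-Hochberg adjustment over 14935 genes, against 16.9% and 7.62% of all genes tested. All 100 passed the filter on low values, a condition that their day 3 level met by itself. In 5 of them all EpiSC and PGCLC arrays were below the filter level, and 1 of these, Zmynd10, is among the 43 calls, so its difference is one of background values. The median difference was 0.66 for the members and 0.10 for all genes tested. Leaving out 1 array at a time kept 39 of the 43 and 8 of the 9 calls.

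The contractile genes were on the EpiSC side. Of the 26 genes of the actin and SRF list 17 were higher in EpiSCs and 1, Lima1, was lower, with a median of 1.44; among them were 6 of the 7 members. Acta1 differed by 7.33 ± 0.74 (SE, n = 2 arrays a group; limma adjusted p = 7.39e-06), and since both PGCLC arrays were below the filter level it was at least 53.2-fold higher, set against that level. Tagln differed by 4.12 ± 0.26 (limma adjusted p = 1.64e-07), Cald1 by 2.41 ± 0.11, Actc1 by 1.44 ± 0.25 and Cnn2 by 1.12 ± 0.11. Lmod1 differed by 3.15 ± 0.39, but both its PGCLC arrays were below the filter level, so it was at least 1.33-fold higher. The call for Cnn2 was lost without PGCLC replicate 2, where it differed by 0.91. Myl9 differed by 0.72 ± 0.12, under the threshold of 1. The 7 fibroblast markers summed to 6084.9 to 6254.1 in EpiSCs and 546.7 to 860.6 in PGCLCs and none was below the filter level on both EpiSC arrays, so these markers moved with the contractile genes; their part in the result was not tested.

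Genes of other kinds were on that side too. Where the PGCLC mean was below the filter level only a bound is measured, given first for 5 such genes. Thbs1 was at least 23.97-fold higher in EpiSCs and Mid1, a microtubule-bound ubiquitin ligase, at least 15.01-fold. Cxcl10 was at least 9.30-fold higher, Lrp2 at least 8.67-fold and Ifi27l2a, an interferon-induced gene, at least 3.52-fold. The highest limma adjusted p among the 5 was 7.44e-08. In each of them both PGCLC arrays were lower than both EpiSC arrays. Other members called on this side also had PGCLC means below the filter level. Among them were Procr (at least 6.55-fold), Morc4 (4.86-fold), Cited1 (4.79-fold), Krt20 (1.68-fold) and Scg5 (1.39-fold). The size for Mid1 rests on its probe set. Another Mid1 probe set had log2 means of 4.12 in EpiSCs and 4.77 in PGCLCs, and a further one 5.11 and 4.04. On amplified arrays Mid1 differed by -0.05 ± 0.89 and was not called. Krt18 (4.10 ± 0.09, or 17.2-fold), Ccn1 (3.85 ± 0.22), Prnp, the prion protein (3.72 ± 0.09), Adm (3.35 ± 0.35), F3 (2.90 ± 0.19), Sgce, an imprinted sarcoglycan (2.66 ± 0.10), and Ccn2 (2.24 ± 0.08) were also higher in EpiSCs.

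The 9 genes higher in PGCLCs were smaller steps. Sycp3 differed by -2.47 ± 0.11, Fam221a by -2.16 ± 0.16, Fam110c, a centrosomal protein, by -1.82 ± 0.21, Frat2, a GSK3-binding activator of WNT signalling, by -1.47 ± 0.18, Wsb2, a SOCS-box protein, by -1.40 ± 0.09 and Pdk4 by -1.30 ± 0.17. For Sycp3 the EpiSC arrays, at 21.4 and 20.4, were below the filter level, so PGCLCs were at least 4.12-fold higher. For Fam110c the EpiSC arrays, at 21.1 and 22.1, were below it too, and the bound was 2.72-fold. Fam221a had 539 and 616 in PGCLCs, above its 170 and 192 at day 3. Irak2 was called at -1.05 ± 0.11 and lost the call without EpiSC replicate 1 (-0.94) or PGCLC replicate 2 (-0.97).

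**Figure D4:**
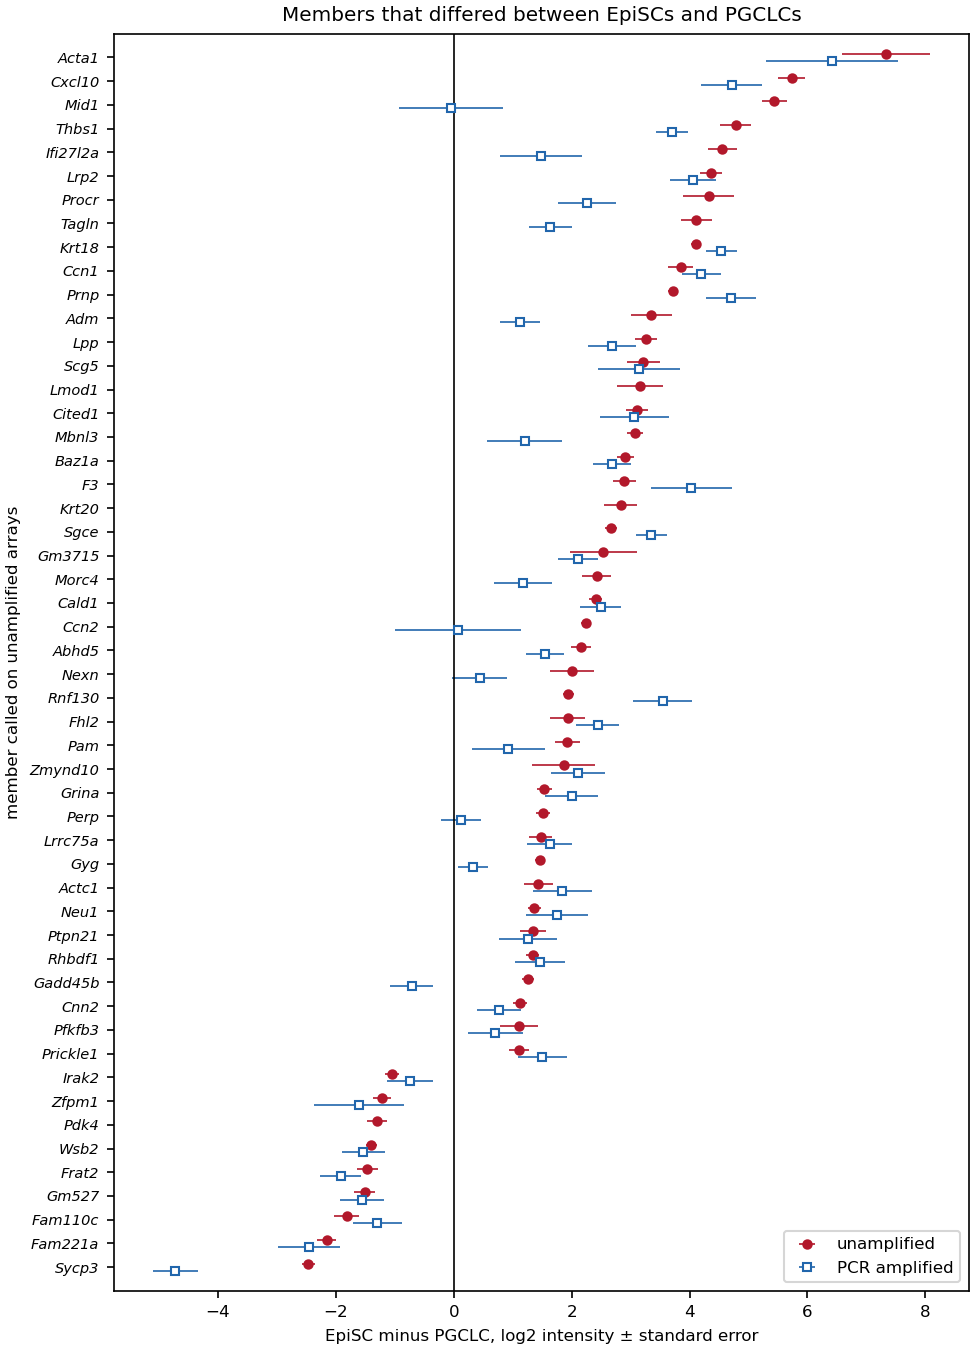
EpiSC minus PGCLC difference in log2 intensity with its standard error (2 arrays a group) for the 52 genes called on unamplified arrays (red circles), beside the same difference on amplified arrays (open blue squares; none where the gene was not tested there). Among the widest gaps between both sets are Mid1, Ccn2 and Gadd45b, at 5.44, 2.24 and 1.26 without amplification, and not called after it (-0.05, 0.07 and -0.71).

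After amplification 89 of the 100 genes passed the filter and 15609 genes were tested. The 11 that did not pass included Lmod1, Krt20, Pdk4 and Taf15, whose highest amplified intensities were 36.0, 35.2, 9.38 and 3.56. The amplified arrays hold no day 3 EpiLCs, so a gene passed through other groups. Between EpiSCs and PGCLCs 29 members were higher and 7 lower, against 10.4% and 5.7% of all genes tested, and 17 and 2 were kept when 1 array was left out at a time. Without PGCLC replicate 2 the counts were 19 and 3, and without PGCLC replicate 1 the lower count was 4. The amplified EpiSC arrays were uneven, at 908 and 143 for Acta1 and 1107 and 362 for Actc1. Without EpiSC replicate 1 the counts were 29 and 7, and without EpiSC replicate 2 they were 27 and 9. Among the 17 were Acta1 (6.42 ± 1.12), Cxcl10 (4.72 ± 0.52), Prnp (4.70 ± 0.42), Krt18 (4.54 ± 0.26), Ccn1 (4.196 ± 0.33), Lrp2 (4.06 ± 0.39), F3 (4.03 ± 0.69), Thbs1 (3.70 ± 0.27), Sgce (3.35 ± 0.27) and Cald1 (2.49 ± 0.35), and Sycp3 (-4.72 ± 0.38) was lower. The limma adjusted p was at most 0.0032 for these 11 genes. Of the other contractile genes tested, Actc1 (1.84 ± 0.50) and Tagln (1.64 ± 0.37) were called, but not in every run that left out 1 array. Cnn2 (0.77 ± 0.37) and Myl9 (0.69 ± 0.51) were not called. Where a group is below the filter level, as PGCLCs are for Acta1, Cxcl10, Lrp2 and F3 and EpiSCs for Sycp3, only a bound is measured: at least 14.97-fold, 4.598-fold, 4.36-fold and 4.68-fold higher in EpiSCs, and 4.62-fold higher in PGCLCs.

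The step from ESCs to day 2 EpiLCs could be tested on amplified arrays, which the rule did not use, although the same step entered the rule on unamplified ones. Of the members 19 were higher at day 2 and 1, Irak2, lower, against 4.27% and 4.24% of all genes tested, with a median of 0.53 against 0.02. Left-out arrays gave 11 to 14 higher, 11 of them without EpiLC replicate 1, and 0 or 1 lower. The call for Irak2 (-1.62 ± 0.39) was lost without that array (-1.04), without ESC replicate 1 (-1.92) and without ESC replicate 2 (-1.31). Myl9 was at 641 and 783 against 6.95 and 3.91 in ESCs, both below the amplified filter level of 24.04, and differed by 7.04 ± 0.51, or at least 29.5-fold (limma adjusted p = 5.92e-05). Lrp2 (at least 12.5-fold, with ESCs below the filter level), Pfkfb3 (at least 5.47-fold, likewise), Krt18 (3.17 ± 0.26), Sycp3 (3.07 ± 0.38), Rnf128 (2.73 ± 0.30), Cnn2 (2.49 ± 0.37) and Cald1 (2.32 ± 0.35) were higher as well, and these 8 calls were kept with any 1 array left out. Acta1, with 1.0 and 10.6 at day 2, and Tagln, with 37.1 and 48.1, were not called.

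EpiSCs were next compared with day 2 EpiLCs, whose arrays are those of the comparison before. Of the members 25 were higher in EpiSCs and 5 lower, against 8.61% and 3.86% of all genes tested, and 13 and 4 were kept with any 1 array left out; the median was 0.82 against 0.03. Without EpiSC replicate 1 the counts were 33 and 7, and without EpiSC replicate 2 they were 23 and 6. Actc1 differed by 4.09 ± 0.50, Thbs1 by 3.54 ± 0.27, Prnp by 3.29 ± 0.42, Sgce by 3.28 ± 0.27, Cald1 by 2.62 ± 0.35, Krt18 by 2.23 ± 0.26 and Tagln by 2.03 ± 0.37 (limma adjusted p at most 0.00598). Acta1 differed by 5.75 ± 1.12 (limma adjusted p = 0.00861), and by 5.08 without EpiLC replicate 1, where the call was lost. Its EpiLC arrays, at 1.0 and 10.6, were below the filter level, so EpiSCs were at least 14.97-fold higher. Sycp3 was the lowest, with all EpiSC intensities below the floor (3.38 and 3.61) against 800 and 327, so that EpiLCs were at least 21.3-fold higher, and Gstt2, a glutathione transferase, differed by -2.24 ± 0.33. Myl9 differed by -0.01. The fibroblast markers summed to 2617.3 to 3088.2 in these EpiSCs and 350.5 to 430.6 in the EpiLCs, and their part in the result was not tested.

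Embryonic epiblast had less of some contractile genes than day 2 EpiLCs. Only 5 members were called, 1 higher (Morc4, an ATPase of the MORC family, 2.61 ± 0.50) and 4 lower, against 0.308% and 0.653% of all genes tested. Cnn2 was at 132 and 133 in epiblast and 1052 and 1231 in EpiLCs (-3.10 ± 0.37, limma adjusted p = 0.00659), and Actc1 at 2.96 and 6.32 against 34.5 and 40.1 (-2.85 ± 0.50, adjusted p = 0.0305). Ddit3 differed by -2.50 ± 0.37 and Chrnb1, a subunit of the muscle acetylcholine receptor, by -2.00 ± 0.25. For Actc1 and Chrnb1 both epiblast arrays were below the filter level, so only a bound is measured. EpiLCs were at least 1.55-fold higher for Actc1 and at least 3.35-fold higher for Chrnb1. No call was kept in every run that left out 1 array: without epiblast replicate 1, epiblast replicate 2 or EpiLC replicate 2 none of the 5 was called, and without EpiLC replicate 1 Cnn2 and Chrnb1 were. The differences themselves moved little, for Cnn2 from -3.11 to -2.99 over the 3 runs that lost its call. With the replicate number as a block 1 member was higher and 8 were lower. The 6 visceral endoderm markers summed to 589.6 to 2711.6 in epiblast and 237.6 to 251.4 in these EpiLCs, and their part in the result was not tested.

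The germ cell step was read as PGCLCs against day 2 EpiLCs in culture and as E9.5 PGCs against epiblast in the embryo. In culture 16 members were higher in PGCLCs and 12 lower, against 6.46% and 6.24% of all genes tested. Each of the 4 arrays, when left out, gave fewer: 9 and 7 without PGCLC replicate 1, 8 and 7 without PGCLC replicate 2, 9 and 7 without EpiLC replicate 1, and 10 and 7 without EpiLC replicate 2. In the embryo 14 were higher in PGCs and 10 lower, against 6.11% and 4.36%, and 9 were higher without either epiblast array. Markers of other cell types moved with these steps: 5 endothelial markers summed to 1332.2 to 1754.2 in PGCLCs against 101.3 to 216.3 in EpiLCs, and to 710.5 to 976.8 in PGCs against 60.8 to 61.7 in epiblast. The 3 blood markers measured summed to 3932.6 to 10945.8 in PGCs against 98.1 to 103.9 in epiblast, and to 81.8 to 105.3 in PGCLCs against 114.8 to 180.8 in EpiLCs. For the 6 visceral endoderm markers the sums were 443.0 to 567.1 in PGCs against 589.6 to 2711.6 in epiblast. In PGCLCs they were 204.5 to 255.9 against 237.6 to 251.4 in EpiLCs. The part of such cells in the results was not tested. The median differences of the members were 0.01 and 0.09, with 10th and 90th percentiles of -2.07 and 2.20 in culture and -1.99 and 2.31 in the embryo, so members went to both sides.

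Nuak1, Fam221a and Cpeb2, a translation regulator named here after its values were seen, were higher at both steps: by 3.03 ± 0.38, 3.23 ± 0.53 and 2.64 ± 0.37 in culture, and by 3.20 ± 0.38, 4.48 ± 0.53 and 2.99 ± 0.37 in the embryo. For Cpeb2 the EpiLC and epiblast arrays were below the filter level, and the bounds were 4.81-fold and 6.41-fold. Lrp2 was below the filter level in PGCLCs and PGCs, so that EpiLCs were at least 12.5-fold and epiblast at least 13.002-fold higher. Also lower at both were Krt18 (-2.31 ± 0.26 and -1.87 ± 0.26), Sycp3 (-2.20 ± 0.38 and -2.23 ± 0.38) and Gstt2 (-2.77 ± 0.33 and -2.16 ± 0.33). Actc1 was at 464 and 255 in PGCs and 2.96 and 6.32 in epiblast, a difference of 6.06 ± 0.50, or at least 14.3-fold (limma adjusted p = 8.15e-05), and at 197 and 159 in PGCLCs, where the difference from EpiLCs was 2.25 ± 0.50. The culture call for Actc1 was lost without any 1 of the 4 arrays, with values from 2.10 to 2.40. Ccn1 was lower in PGCLCs (-2.22 ± 0.33), and Cpeb1, a translation regulator of oocytes, was higher (at least 5.29-fold, with EpiLCs below the filter level). A test of the difference between the 2 steps called 0 members in 1 direction and 1, Tinagl1, in the other (-6.46 ± 1.13, limma adjusted p = 0.0448, and no call with any 1 array left out), against 0.32% and 0.192% of all genes tested, and 2 and 3 with the replicate block.

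**Figure D5:**
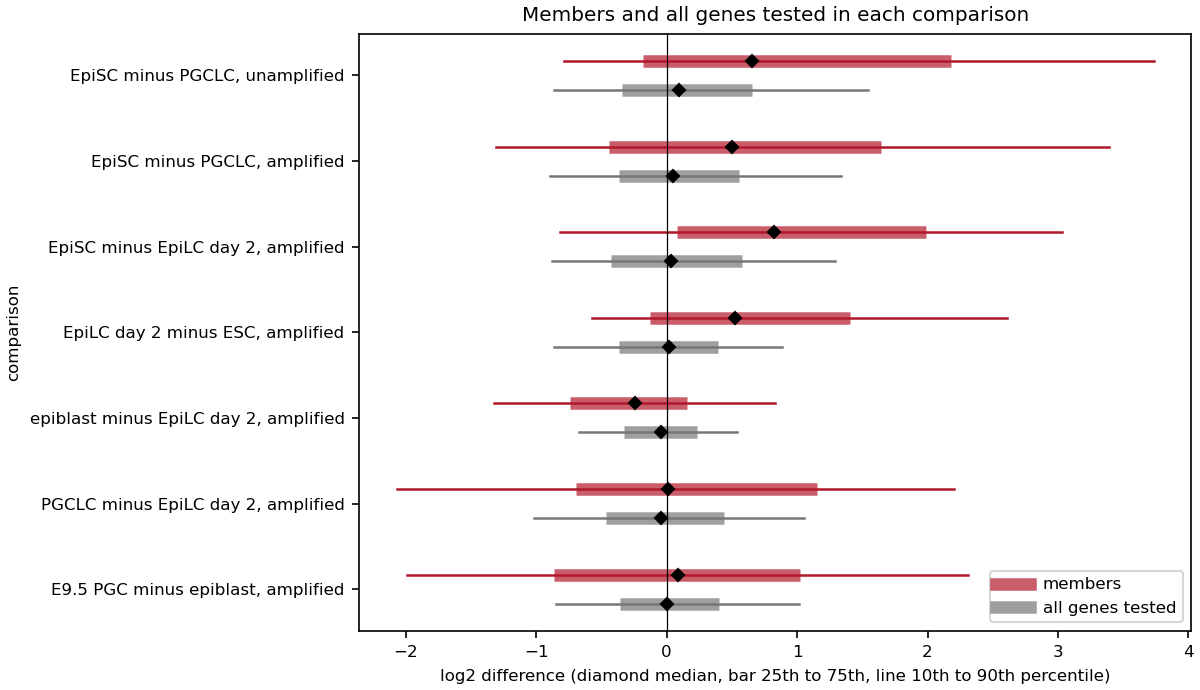
Log2 differences of the members (red; 100 genes without amplification, 89 after it) and of all genes tested (grey) in each comparison the rule did not use; diamonds are medians, bars run from the 25th to the 75th and lines from the 10th to the 90th percentile. Members are shifted towards EpiSCs in the 3 comparisons that include them (medians 0.66, 0.50 and 0.82) and spread to both sides at the germ cell steps.

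Other probe sets of the same genes and the neighbourhood of the genes were looked at last. Of the 100 genes 46 had another probe set, 78 in all, and 44 of these had a day 3 mean of at least 6. Among the 44, 27 had a margin of at least 1, 41 a margin above 0 and 3 none. They were read on the arrays the rule used, and the limit on day 3 level favours a high day 3. Nothing is therefore read from these counts. Cald1 had 2 of the 44, with margins of 1.10 and 1.31, and dimmer probe sets with -0.65 and -0.27. Ccn1 had 1 with 1.98 and others with 0.54 and 0.93. Of the probe sets used, 3 end in _x_at, the mark for probes that may bind other transcripts, and 1 of them is that of Ccn1. The 93 genes that could be placed among protein-coding genes lay on 20 chromosomes, and 2 pairs were near each other: Scg5 and Actc1 with 2 such genes between them, and Rnf128 and Morc4 with 3.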

How the data were processed

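The authors deposited linear intensities, from 1.0 to 17519, for 45101 probe sets on 24 arrays. Software and normalization: not given in the sources used here. Total RNA was labelled as biotinylated cRNA, per the labels' protocols. The number of arrays limits the precision. Intensities were floored at 4.2 and taken to log2, and probe sets with 1 symbol in the platform annotation were kept. Unamplified and amplified arrays were fitted separately over all 6 groups with limma 3.58.1 in R 4.3.3 (lmFit, eBayes with trend), for genes above the 40th percentile (28.1 and 24.04) on at least 2 arrays. A call is a Benjamini-Hochberg adjusted p under 0.05 with a log2 difference of at least 1. The fits were tested on simulated data. A bound of at least N-fold sets the brighter group against the filter level.

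Members and gene lists were chosen with earlier results of these data known. Named genes are the 14 largest margins, members of the lists, the 6 largest differences each way between EpiSCs and PGCLCs, the 4 brightest, the 4 nearest each limit, and up to 4 called each way in each amplified comparison; provisional names were passed over, and Fhl2 and Cpeb2 were chosen after their values were seen. Same-numbered samples deviated together in 15 of 15 pairs of amplified groups (median r 0.37) and in 3 of 15 unamplified (median 0.05). The fits given in the Results nevertheless used no pairing, and the replicate number entered only in an alternative run, the replicate block. With the block, members higher in EpiSCs than in day 2 EpiLCs went from 25 to 36. Members lower in PGCLCs than in day 2 EpiLCs went from 12 to 17. Alternatives covered the floor, filter, scaling, probe set choice, trend, groups fitted, replicate block and each array left out. Promoter windows were RefSeq's for GRCm38.p6.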

Additional observations from a re-analysis of the deposited data

Results flagged for a closer look

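Tinagl1, the basement membrane protein, differed between the germ cell steps of embryo and culture by a test of the difference itself (-6.46 ± 1.13 on the log2 scale, limma adjusted p = 0.0448, 2 arrays a group). Its amplified intensities were 10.2 and 40.1 in day 2 EpiLCs and 470 and 389 in PGCLCs, and 222 and 159 in epiblast and 61.7 and 32.7 in PGCs, so that it was higher in both PGCLC arrays than in both EpiLC arrays and lower in both PGC arrays than in both epiblast arrays. With 1 array left out the difference ranged from -7.45 to -5.48 and the adjusted p from 0.052 to 0.196.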

How the results depend on the processing

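The 100 members were the same under floors of 1 and the 40th percentile, and became 89 with median-centred arrays, 90 with quantile normalization, 90 with the mean of probe sets (73 shared), 82 to 119 with 1 array left out, and 64 when the rule had to hold within each replicate number as a block. Of 137 named calls 73 held under every alternative run and none reversed; over 1785 repeats 226 lost the call and 1559 kept it. Fitting only the groups of a contrast gave, for EpiSCs against PGCLCs after amplification, 17 higher and 1 lower, against day 2 EpiLCs 8 and 2, for day 2 EpiLCs against ESCs 0 lower, for epiblast against day 2 EpiLCs 0 higher and 1 lower, and for the difference between germ cell steps 3 higher. With the replicate block, which pairs the amplified samples, epiblast against day 2 EpiLCs gave 8 lower and the difference between steps 2 higher and 3 lower; it moved no other count of calls by over 1.5 times. The mean of probe sets gave 3 lower in EpiSCs than in day 2 EpiLCs and 0 lower in the difference between steps. No filter gave 0 lower for day 2 EpiLCs against ESCs, 0 higher for epiblast and 0 lower for the difference between steps; a floor at the 40th percentile gave 2 lower there, and no trend gave 0 higher for epiblast. With 1 array left out, higher and lower counts ranged from 19 to 29 and 3 to 9 for amplified EpiSCs against PGCLCs, 11 to 14 and 0 to 1 for day 2 EpiLCs against ESCs, 0 to 0 and 0 to 2 for epiblast, 8 to 10 and 7 to 7 for PGCLCs against day 2 EpiLCs, 9 to 10 and 8 to 11 for PGCs against epiblast, and 0 to 0 in both directions for the difference between steps. Fewer samples enter the fits with fewer groups or arrays; otherwise the cause was not tested.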
